A study of Mus musculus with 4 samples.

Results

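The sebaceous lipid synthesis genes are 36 genes that act in the making, uptake and storage of lipid in the sebaceous gland (SG). They were taken by symbol from a list made by function with earlier results of these data known, and all 36 were found among the 32479 genes of the count files. Each was followed in single cells of dorsal epidermis from 4 female C57BL/6N mice at postnatal day (P) 19. The 2 control mice (ctr) carried floxed Cers4 alleles and no Cre. The 2 CerS4epi-/- mice carried the same alleles with Cre under the keratin-14 promoter, which is active in epidermal stem cells and so deletes the gene in all keratinocyte lineages, the gland included, but not in T cells or Langerhans cells. Each mouse gave 1 set of counts by BD Rhapsody, called a library here. The method captures single cells in microwells and marks the molecules it reads with short random tags (unique molecular identifiers, UMIs). The paper states that cells were labelled with a multiplexing kit and that sample tags were demultiplexed from the reads. Which mice shared a capture is not stated. Every comparison between genotypes rests on 2 mice against 2. The p-values use variances shared over all genes tested in a fit, so they do not measure the spread of a single gene between these mice alone.

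After filtering at 1200 counts and 20% mitochondrial counts, 34150 cells remained, 7567 to 9086 per mouse, with median depths of 3266 to 3884 counts per cell. The 2 control libraries shared 0 cell barcodes where 87.1 would be shared if barcodes were drawn at random, and the 2 CerS4epi-/- libraries shared 0 where 77.1 would be. Any control and CerS4epi-/- library shared 64 to 102. No barcode with any count was shared within a genotype either, so an effect of genotype and an effect of a capture run that joined certain libraries cannot be told apart in these data.

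Sebocytes fill with neutral lipid as they move towards the centre of the gland and then burst, a mode of secretion called holocrine, which releases the sebum. Sebum is rich in wax esters, triglycerides and sterol esters. Cytosolic acetyl-CoA is built into palmitate by fatty acid synthase, elongases and stearoyl-CoA desaturases lengthen and desaturate it, and reductases and acyltransferases turn it into fatty alcohols, waxes and glycerides. PPARG and SREBP1 are transcription factors of this programme, and the interfollicular epidermis (IFE) makes its barrier lipids with many of the same enzymes.

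The windows around the start sites of Scd1 and Mgst1 are printed because these members stand for the patterns described below. Scd1 is high in sebocytes and was called lower over all other keratinocytes together and in 1 class. Mgst1 is high in sebocytes and rose outside the gland in 4 classes. Each window runs from 250 bases before to 50 bases from the start of the canonical transcript (GRCm39, Gencode vM39), 5′ to 3′ on the strand of the gene, and capitals mark the motifs searched. Scd1 lies on chromosome 19 on the minus strand (chr19:44396291-44396590) and Mgst1 on chromosome 6 on the plus strand (chr6:138118334-138118633).
Scd1: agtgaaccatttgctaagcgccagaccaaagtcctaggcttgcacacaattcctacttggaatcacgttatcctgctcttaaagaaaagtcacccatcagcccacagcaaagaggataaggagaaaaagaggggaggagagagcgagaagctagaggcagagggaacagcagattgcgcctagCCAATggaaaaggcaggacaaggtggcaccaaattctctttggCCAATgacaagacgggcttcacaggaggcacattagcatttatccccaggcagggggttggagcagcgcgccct
Mgst1: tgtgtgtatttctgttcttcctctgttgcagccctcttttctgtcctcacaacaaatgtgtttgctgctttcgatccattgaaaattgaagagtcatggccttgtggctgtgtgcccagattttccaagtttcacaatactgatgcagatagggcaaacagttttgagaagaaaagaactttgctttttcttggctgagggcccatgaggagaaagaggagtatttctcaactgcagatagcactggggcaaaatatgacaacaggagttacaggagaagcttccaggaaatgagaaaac

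Scd3, Scd2 and Scd1 sit in this order on chromosome 19, with 49.2 kb between Scd3 and Scd2 and 87.6 kb between Scd2 and Scd1. The Scd1 window holds CCAAT at 67 and at 24 bases before the start. The Mgst1 window holds none of the 7 motifs. Among all 36 members, CCAAT was in 17 windows and in 39.9% of 21757 windows of protein-coding genes, and the GC box GGGCGG was in 17 and in 42.5%. The nuclear receptor core AGGTCA was in 8 against 15.1%, CACGTG in 4 against 7.82%, TATAAA in 3 against 13.2% and TCACNCCAC, a form of the sterol regulatory element, in 2 against 1.34%. The paired form AGGTCANAGGTCA, which contains the core, was in 0 members and in 10 windows of all genes. Both strands were searched, and a match is a run of letters, not evidence of binding.

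Cells were placed in classes by marker genes that are not members. A cell was called sebocyte-like with at least 2 UMIs over 5 genes of fat droplets and triglyceride handling (Cidec, Gpd1, Plin4, Plin5, Pnpla5), a limit chosen with the data at hand. It found 41 cells, of which 8 were in ctr 1, 0 in ctr 2, 18 in CerS4epi-/- 1 and 15 in CerS4epi-/- 2. Only 2 of them lay at exactly 2 UMIs, and 43 cells lay just outside with 1 UMI. Of the 16 listed SG markers, 7, 11 and 9 were detected in these 3 mice, with a summed level of 6372 to 6852 CPM (counts scaled to a common library sum of 1e+06) against 1271 to 1511 CPM in other keratinocytes. These 16 include the 5 genes of the gate, so part of this difference is set by the gate. All 6 adipocyte markers were at 0 in the sebocyte-like cells of all 3 mice, as were all 6 fibroblast markers. A further 39 cells (4, 2, 11 and 22 in ctr 1, ctr 2, CerS4epi-/- 1 and CerS4epi-/- 2) were set aside by another gate, chosen with the data at hand, and enter no class. Of these, 14 would otherwise be upper hair follicle (uHF)-like, 2 outer bulge (OB)-like and 1 inner bulge (IB)-like, and the counts with them in their classes are given beside the main ones where they differ. The remaining keratinocytes numbered 31139, mostly IFE basal-like (13830), IFE spinous-like (10564), uHF-like (3956) and IFE granular-like (2204) cells, with 437 OB-like and 148 IB-like cells.

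The deleted gene was checked first. Cers4, a ceramide synthase, was at 2653 CPM in the sebocyte-like cells of ctr 1 and at 277 and 273 CPM in those of the CerS4epi-/- mice. In 77 cells gated by members, described below, which include 2 cells of ctr 2, it was at 2876 and 3968 CPM in the controls and at 288 and 413 CPM in the CerS4epi-/- mice, so the genotype groups did not overlap. T cell-like cells, which do not use keratin-14, had 69.4 to 107 CPM in all 4 mice. In all other keratinocytes the level was 0.760 to 1.05 CPM and did not differ by genotype past the threshold (log2 fold change 0.13 ± 0.27 (SE), adjusted p = 0.783, edgeR quasi-likelihood test with Benjamini-Hochberg adjustment). In OB-like cells it was at 8.43 and 31.5 CPM (3 and 8 counts) in the controls and at 1.81 and 4.35 CPM (2 and 3 counts) in the CerS4epi-/- mice, so the groups did not overlap, but the counts were too few to be tested.

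Most of the members were highest in sebocyte-like cells. For each mouse with sebocyte-like cells, the level of a member in those cells was divided by its highest level in any other keratinocyte class, and members at 10-fold or more in all 3 mice were called sebaceous only. By this rule 22 of 36 were sebaceous only, 6 were enriched (lowest ratio from 2 to under 10), 7 were shared (under 2) and Fabp4, a fatty acid binding protein of fat cells with 2 counts in the sebocyte-like cells, was not classed. With the 39 cells set aside back in their classes 23 were sebaceous only. In the test of sebocyte-like cells against all other keratinocytes of the same mouse, 33 of 35 members tested passed, 32 of them higher, where 37.0% of all genes tested passed and 14.0% were higher (edgeR, mouse as block). The members were listed as genes of the gland, and members and gates were chosen with earlier results of these data known. High levels were thus largely set in advance, so these counts are a description. Variance in this fit is shared over all genes, so its p-values do not measure the spread of a member between the 3 mice. The median log2 difference of the members was 7.21, and that of all genes tested was -0.53. Without the 5% of cells with the most counts, 20 passed.

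**Figure D1:**
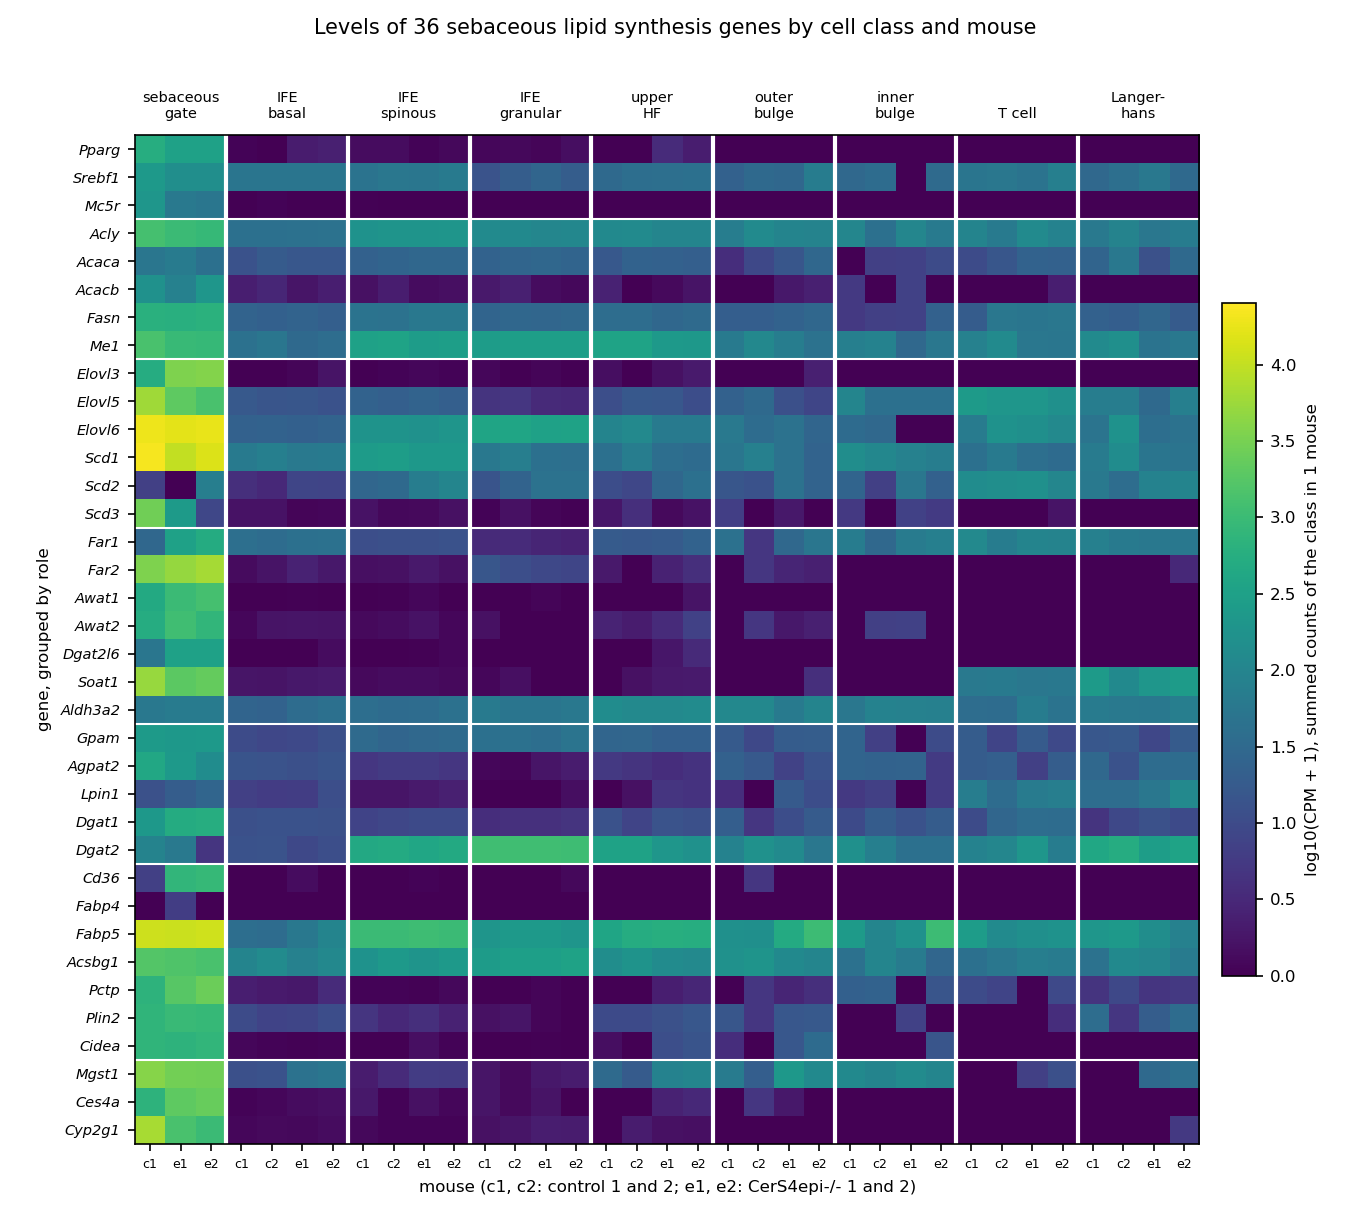
Colour shows the level of each of the 36 members (vertical axis, by role) in each class and mouse (horizontal axis), as log10(CPM + 1) of summed counts, with c1 and c2 for the controls and e1 and e2 for the CerS4epi-/- mice. Most members are bright under the sebaceous gate, which has no cell of c2, and dark elsewhere, while Acly, Me1, Elovl6, Scd1, Dgat2, Fabp5 and Acsbg1 also have signal in IFE classes.

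The elongases and desaturases differed in how far they were confined to the gland. Elovl6, which lengthens palmitate, was at 19396 CPM in ctr 1 and at 16499.7 and 17803 CPM in the CerS4epi-/- mice, 50.6 to 52.7 times its level in the next class, the IFE granular-like cells. Scd1 was at 21457, 9869 and 14884 CPM, 45.5 to 83.2 times its level in IFE spinous-like cells. Elovl3, which makes very long saturated chains, was at 534, 3487 and 3833 CPM, and its next class, the uHF-like cells, held 1, 0, 4 and 6 counts in ctr 1, ctr 2, CerS4epi-/- 1 and CerS4epi-/- 2. Scd2, the desaturase of the same cluster of genes, showed the opposite: it was at 5.74, 0 and 74.9 CPM in sebocyte-like cells, at most 0.762 times its level in IFE spinous-like cells. Scd2 did not pass the test of sebocyte-like against other keratinocytes (log2 difference -0.68 ± 0.39, adjusted p = 0.164, edgeR). Near-identical genes such as the Scd family can exchange reads under the authors' sharing of multi-mapped reads, which limits each of these values.

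Of the 7 members of fatty alcohol, wax and sterol ester synthesis, 5 were sebaceous only. Awat1 and Awat2, acyl-CoA wax alcohol acyltransferases, Dgat2l6, a relative of them on chromosome X, Far2, a fatty acyl-CoA reductase, and Soat1, which esterifies cholesterol, were these 5. Awat2 was at 534, 1123 and 779 CPM, 129 to 304 times its next class. Soat1 was also found outside the keratinocytes, at 54.0 to 62.4 CPM in T cell-like and at 123 to 254 CPM in Langerhans cell-like cells, where 0.393 to 0.675 CPM were found in other keratinocytes. Far1, the second reductase, and Aldh3a2, which oxidises fatty aldehydes, were shared, and in Langerhans cell-like cells they were at 56.9 to 80.8 and 57.6 to 74.4 CPM. Aldh3a2 was at 57.4, 67.2 and 67.4 CPM in sebocyte-like and at 115 to 135 CPM in uHF-like cells.

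The supply of fatty acids was less specific to the gland. Fasn was 10.5 to 13.7 times above IFE spinous-like cells, just past the limit of 10. Acacb, an acetyl-CoA carboxylase, was at 167, 85.96 and 206 CPM and had few counts elsewhere. Acly, which makes cytosolic acetyl-CoA, and Me1, which makes NADPH, were enriched only, at 4.43 to 7.31 and 3.04 to 3.75 times their level in IFE spinous-like cells, and Acaca was shared. Of the transcription factors and receptors, Pparg was at 545, 328 and 326 CPM with 129 as its lowest ratio to another class. Mc5r, a melanocortin receptor of exocrine glands, was at 201, 59.1 and 52.4 CPM and near 0 elsewhere, while Srebf1 was only 2.14 to 4.50 times above its next class.

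Of the 5 members of glycerolipid synthesis, 1 was sebaceous only, Dgat1 (lowest ratio 11.4). Dgat2, the other acyltransferase of the last step of triglyceride synthesis, was at 91.9, 59.1 and 3.74 CPM in sebocyte-like cells and at 1064 to 1122 CPM in IFE granular-like cells. It was the only member of the 35 tested that was lower in sebocyte-like cells than in other keratinocytes (log2 difference -2.94 ± 0.27, adjusted p = 1.90e-26, edgeR). The 3 levels of Dgat2 in sebocyte-like cells spread far more than this SE, which rests on a variance shared over all genes. Dgat2 thus had its highest level in the outermost living layer of the IFE and Dgat1 in the gland. Of the 7 genes of uptake, binding and droplets, 5 were sebaceous only: Cd36, a fatty acid translocase, Fabp5, Pctp, a phosphatidylcholine transfer protein, Plin2, a droplet coat protein, and Cidea, a droplet fusion protein. Mgst1, a glutathione transferase, Ces4a, a carboxylesterase, and Cyp2g1, a cytochrome P450, were also sebaceous only. Fabp5 was only 10.2 to 11.7 times above IFE spinous-like cells, just past the limit. With stricter gates Fabp5 and Dgat1 were enriched only. With at most 10% mitochondrial counts Fabp5, Fasn and Mgst1 were enriched only.

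A second gate was made from members themselves, with a UMI of at least 2 of Cidea, Mc5r, Awat2 and Elovl3, and its values are a description. It found 77 cells (11, 2, 28 and 36 in ctr 1, ctr 2, CerS4epi-/- 1 and CerS4epi-/- 2), all 41 sebocyte-like cells and 25 of the 39 cells set aside among them. By the same rule 17 members were sebaceous only in it, among them Cidea, Mc5r, Awat2 and Elovl3, which the gate itself selects for. In its 2 cells of ctr 2, Elovl6 was at 19627 CPM, Scd1 at 19922 CPM and Mgst1 at 6416 CPM.

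Among sebocyte-like cells the members split by mouse. Only ctr 1 stands for the controls here, with 8 cells, and these values are a description. Cidea (746, 688 and 771 CPM), Fasn (632, 604 and 640 CPM) and Fabp5 (11627, 10963 and 12035 CPM) were at similar levels in ctr 1, CerS4epi-/- 1 and CerS4epi-/- 2. In the member-gated cells, however, Fasn was at 745 to 1224 CPM in the controls and 600 to 641 CPM in the CerS4epi-/- mice. Others differed from ctr 1 in the same direction in both CerS4epi-/- mice, and for these the 2 member-gated cells of ctr 2 are set beside the same gate in the other mice. With 1 control mouse in the sebocyte-like class, genotype and mouse cannot be told apart, and the genotype effect was not tested there.

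Cyp2g1 was at 6574 CPM in ctr 1 and at 1383 and 1003 CPM in the CerS4epi-/- mice. Elovl5, an elongase of polyunsaturated chains, was at 5966 against 2069 and 1381 CPM, and Soat1 at 5191 against 1945 and 2250 CPM. Scd3 was at 2739 against 245 and 7.49 CPM. All 4 were lower in both CerS4epi-/- mice than in ctr 1, but Scd3 was carried by few cells: its highest cell in ctr 1 reached 15251 CPM while the median cell had 228 CPM, and 5 of 8 cells held a UMI. The member-gated cells of ctr 2 did not share the high levels of ctr 1. Cyp2g1 had 0 counts there against 1094 and 762 CPM in the CerS4epi-/- mice, Scd3 had 0 counts against 195 and 4.39 CPM, and Elovl5 was at 169 against 1660 and 841 CPM. Soat1 was at 2490 CPM, between 2010 and 2613 CPM. For all 4 the 2 controls thus overlapped the CerS4epi-/- mice or lay on both sides of them. This did not hold for every member lower in both CerS4epi-/- mice than in ctr 1. In the member-gated cells Mgst1 was at 4503 to 6416 CPM in the controls against 2991 to 3016 CPM. Scd1 was there at 19922 to 20830 against 10052 to 13201 CPM, and Pparg at 507 to 527 against 350 to 395 CPM. For these the groups did not overlap, as a description over 2 cells of ctr 2.

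Elovl3 was at 534 CPM in ctr 1 and at 3487 and 3833 CPM in the CerS4epi-/- mice. Cd36 was at 5.74 against 771 and 898 CPM, with a UMI in 1 of 8 cells of ctr 1 and in 17 of 18 and 15 of 15 cells of the CerS4epi-/- mice. Ces4a was at 706 against 2007 and 2347 CPM, and Far1 at 28.7 against 325 and 502 CPM. These 4 were higher in both CerS4epi-/- mice than in ctr 1. In the member-gated cells of ctr 1 and ctr 2, Cd36 was at 22.7 and 42.2 CPM against 623 and 709 CPM, Ces4a at 559 and 42.2 against 1594 and 1456 CPM, and Far1 at 27.3 and 0 against 263 and 303 CPM. Elovl3, which is part of that gate, was at 713 and 1688 against 2989 and 3045 CPM. Here the groups did not overlap with ctr 2 included, as a description over 2 cells of that mouse. The same held for other members, such as Pctp at 0 to 586 against 1437 to 1699 CPM and Dgat1 at 191 to 211 against 419 to 445 CPM. The summed uHF markers in the sebocyte-like cells were at 1148 CPM in ctr 1 and at 2716 and 4122 CPM in the CerS4epi-/- mice, and their part in these values was not tested.

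**Figure D2:**
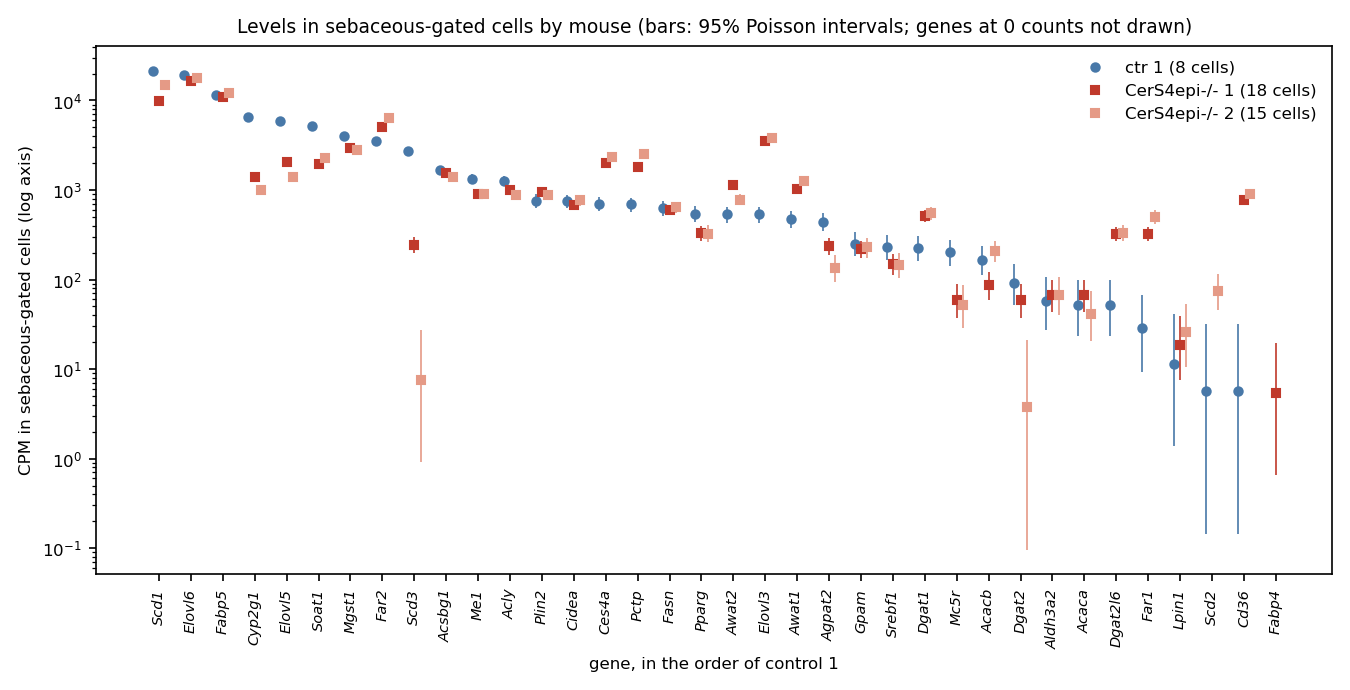
Level (CPM of summed counts, log axis) of the members in sebocyte-like cells, in the order of their level in ctr 1, with 1 point per mouse and bars for 95% Poisson intervals, which cover counting error only; members at 0 counts are not drawn. Cyp2g1, Elovl5, Soat1 and Scd3 lie lower, and Elovl3, Cd36, Far1 and Ces4a higher, in both CerS4epi-/- mice than in ctr 1.

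Outside the gland the question was which members were raised in keratinocytes of CerS4epi-/- mice. Over all other keratinocytes together, 30 members could be tested and 11 passed, 7 higher and 4 lower, where 16.5% of all genes tested passed, 9.57% higher and 6.89% lower (edgeR). The median log2 fold change of the members was 0.11 and that of all genes tested -0.00. Called higher were Cidea, Mgst1, Pparg, Awat2, Scd2, Lpin1 and Aldh3a2, and called lower were Scd1, Me1, Elovl6 and Dgat2. With the 39 cells set aside back in their classes 14 passed, 11 higher and 3 lower, 10 of them shared with the 11. The share of all genes called in that setting is not given. Of these cells 4 and 2 came from the controls and 11 and 22 from the CerS4epi-/- mice, and 25 also passed the gate made from members. The added calls are thus no result about the members. The other 6 members, Mc5r, Elovl3, Awat1, Dgat2l6, Cd36 and Fabp4, had too few counts to be tested. The mix of classes in this sum was not the same in both genotypes: uHF-like cells were 7.67% and 5.38% of all cells in the controls and 16.3% and 17.8% in the CerS4epi-/- mice, and IFE spinous-like cells 36.3% and 38.6% against 25.2% and 22.5%. The classes were therefore tested on their own.

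Within classes, 26 members were tested in at least 1 class. Of these, 8 were higher in at least 1 class, 4 were lower and 14 passed in none. The share of all genes that passed in at least 1 class is not given, so these counts are no result about the members. Among the 8, Pparg, Lpin1 and Cidea were called only where they reached the filter on low counts in the CerS4epi-/- mice alone. In IFE basal-like cells 5 of 23 members passed, all higher, where 8.45% of all genes tested passed, 5.13% higher and 3.33% lower. Of 23 members in IFE spinous-like cells 3 passed, all higher, against 5.11%, with 3.10% higher and 2.01% lower. In IFE granular-like cells 2 of 17 passed, 1 in each direction, against 6.85%, with 4.18% higher and 2.67% lower. In uHF-like cells 7 of 21 passed, 4 higher and 3 lower, against 10.8%, with 6.36% higher and 4.44% lower. With the cells set aside back in this class 11 passed, 9 higher and 2 lower, and 6 of the 7 were among them. This count, and that with these cells in IB-like cells below, stands without the share of all genes called in that setting. In OB-like cells 2 of 14 passed, both higher, against 8.31%, with 3.99% higher and 4.32% lower. In IB-like cells 0 of 9 passed by edgeR and 0 by DESeq2, with 2 at an unadjusted p under 0.05, where 5.38% of all genes passed, 3.03% higher and 2.35% lower, and 1 passed with the cells set aside back in the class. The medians of the members were 0.09 in IFE basal-like, 0.09 in IFE spinous-like, 0.10 in IFE granular-like, 0.06 in uHF-like, -0.19 in OB-like and 0.09 in IB-like cells, and those of all genes tested lay between -0.01 and 0.01. The members went in both directions, so these medians say nothing of the single genes. Cidea and Lpin1 in uHF-like cells, Pparg in IFE basal-like cells and Cidea over all other keratinocytes reached the limit of the filter on low counts in the CerS4epi-/- mice only and could not have been tested otherwise, so their p-values are no support for a difference and their counts are given below. Of the members that reached it in both groups, 5 of 19 passed in uHF-like cells, 4 of 22 in IFE basal-like cells and 10 of 29 over all other keratinocytes.

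**Figure D3:**
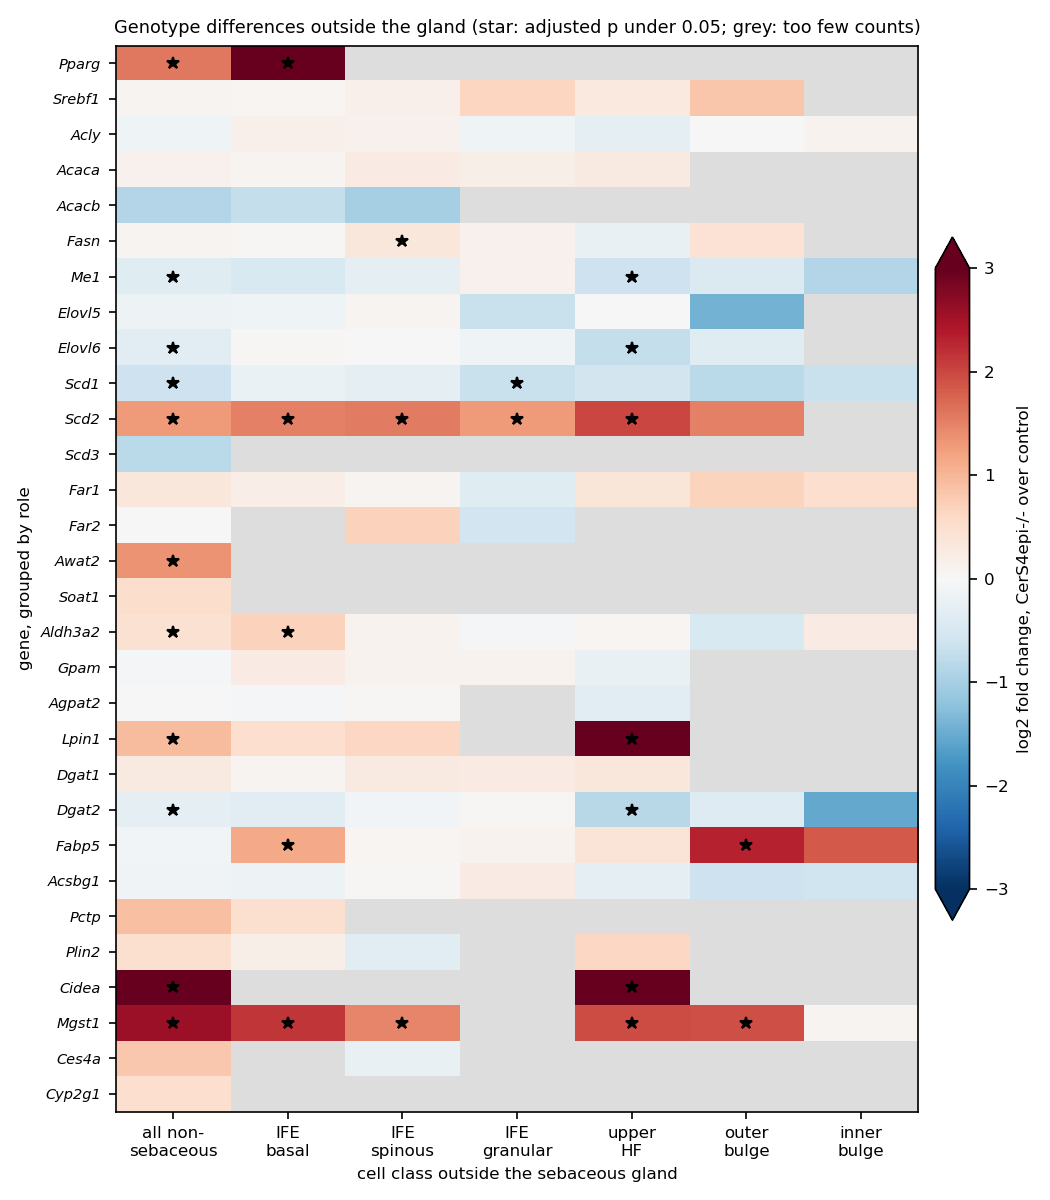
Colour shows the log2 fold change (CerS4epi-/- over control, 2 mice each) of the 30 members tested (vertical axis, by role) over all other keratinocytes and in each class (horizontal axis), drawn up to 3 in either direction. Stars mark an adjusted p under 0.05 (edgeR) and grey marks too few counts to test; starred fields are red for Mgst1, Scd2, Cidea, Pparg, Lpin1, Fabp5, Aldh3a2, Awat2 and Fasn and blue for Me1, Elovl6, Scd1 and Dgat2.

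Mgst1 and Scd2 each rose in 4 classes. Mgst1 codes for a membrane-bound glutathione transferase, and in uHF-like cells it was at 32.0 and 17.0 CPM in ctr 1 and ctr 2 and at 88.7 and 101 CPM in CerS4epi-/- 1 and 2. In IFE basal-like cells it was at 10.9 and 11.6 CPM against 44.2 and 52.2 CPM. In IFE spinous-like cells it was at 1.15 and 2.42 CPM against 5.15 and 4.73 CPM, and in OB-like cells at 67.4 and 19.7 CPM against 220 and 122 CPM. The genotype groups did not overlap in any of these 4 classes.

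The log2 fold change of Mgst1 was 2.56 ± 0.12 over all other keratinocytes (adjusted p = 0.000391), 2.14 ± 0.13 in IFE basal-like (adjusted p = 4.57e-05), 1.46 ± 0.31 in IFE spinous-like (adjusted p = 0.0297), 1.96 ± 0.21 in uHF-like (adjusted p = 0.000526) and 1.94 ± 0.40 in OB-like cells (adjusted p = 0.00661, all edgeR). In IB-like cells Mgst1 was at 120 and 94.6 CPM against 131 and 99.4 CPM, with a log2 fold change of 0.09 ± 0.34 (adjusted p = 0.947, edgeR). The uHF-like cells with a UMI of Mgst1 made up 9.54% and 5.32% of the class in the controls and 25.2% in each CerS4epi-/- mouse. With every cell thinned to 1200 UMIs the shares were 4.15% and 1.64% against 10.3% and 11.2%. The share thus rose at equal depth too. At this depth it rises both with more expressing cells and with more RNA per cell, so it does not tell these apart, nor do summed counts. In T cell-like cells, which should lack it, Mgst1 was at 0 counts in both controls and had 2 and 4 counts in the CerS4epi-/- mice. In Langerhans cell-like cells it was at 0 against 30.7 and 39.4 CPM, from 8 and 9 counts, and in barcodes of 10 to 100 counts, taken as a measure of free RNA, at 7.86 and 11.01 CPM against 34.3 and 43.7 CPM. Free Mgst1 RNA was thus also higher in the CerS4epi-/- mice. The levels in IFE basal-like cells, 10.9 and 11.6 CPM against 44.2 and 52.2 CPM, lay only a little above those of these barcodes. The part of free RNA in the levels of IFE basal-like, IFE spinous-like and other cells was not tested.

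Scd2 codes for the stearoyl-CoA desaturase that, unlike Scd1, was not higher in the gland. Its level in IFE spinous-like cells was 27.1 and 31.2 CPM in the controls and 73.7 and 98.3 CPM in the CerS4epi-/- mice. In uHF-like cells it was at 10.1 and 7.64 CPM against 29.0 and 40.8 CPM, in IFE granular-like cells at 12.9 and 24.5 CPM against 44.2 and 44.2 CPM, and in IFE basal-like cells at 2.92 and 2.21 CPM against 7.21 and 6.84 CPM. The groups did not overlap in these classes. The log2 fold changes were 1.56 ± 0.13 (adjusted p = 0.000644), 2.00 ± 0.27 (adjusted p = 0.00162), 1.29 ± 0.22 (adjusted p = 0.0128) and 1.51 ± 0.23 (adjusted p = 0.00556), in the same order (edgeR). In OB-like cells it was at 14.0 and 11.8 CPM against 45.2 and 24.7 CPM and did not pass (log2 fold change 1.50 ± 0.53, adjusted p = 0.104, edgeR). Langerhans cell-like cells, which the deletion does not reach, differed in the same direction. There Scd2 was at 35.8 to 58.7 CPM in the controls and at 88.3 to 96.3 CPM in the CerS4epi-/- mice. The rise was thus not confined to keratinocytes, and neither its cause nor the part of free RNA was tested.

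Scd1 went the other way. Over all other keratinocytes it was at 163 and 188 CPM in the controls and at 114 and 112 CPM in the CerS4epi-/- mice (log2 fold change -0.63 ± 0.08, adjusted p = 0.00407, edgeR). In IFE granular-like cells it fell from 56.6 and 75.8 CPM to 40.4 and 39.1 CPM (log2 fold change -0.66 ± 0.15, adjusted p = 0.0316, edgeR). In that class Scd1 did not pass without ctr 2 (-0.42, adjusted p = 0.179). In IFE basal-like, IFE spinous-like, uHF-like, OB-like and IB-like cells Scd1 did not pass. Its log2 fold changes there were -0.20, -0.30, -0.56, -0.82 and -0.67 (adjusted p = 0.325, 0.0654, 0.134, 0.234 and 0.362, edgeR). Outside the gland Scd1 was highest in IFE spinous-like cells, which were a smaller share in the CerS4epi-/- mice. The part of this mix in the summed change was not tested. In Langerhans cell-like cells Scd1 was lower too, at 66.1 to 135 CPM in the controls and 48.1 to 49.9 CPM in the CerS4epi-/- mice. The cause was not tested. Scd3 had 0.276 to 0.647 CPM in other keratinocytes and did not pass (adjusted p = 0.171, edgeR). The 2 desaturases that share this stretch of chromosome 19 thus had opposite calls in IFE granular-like cells and over all other keratinocytes.

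**Figure D4:**
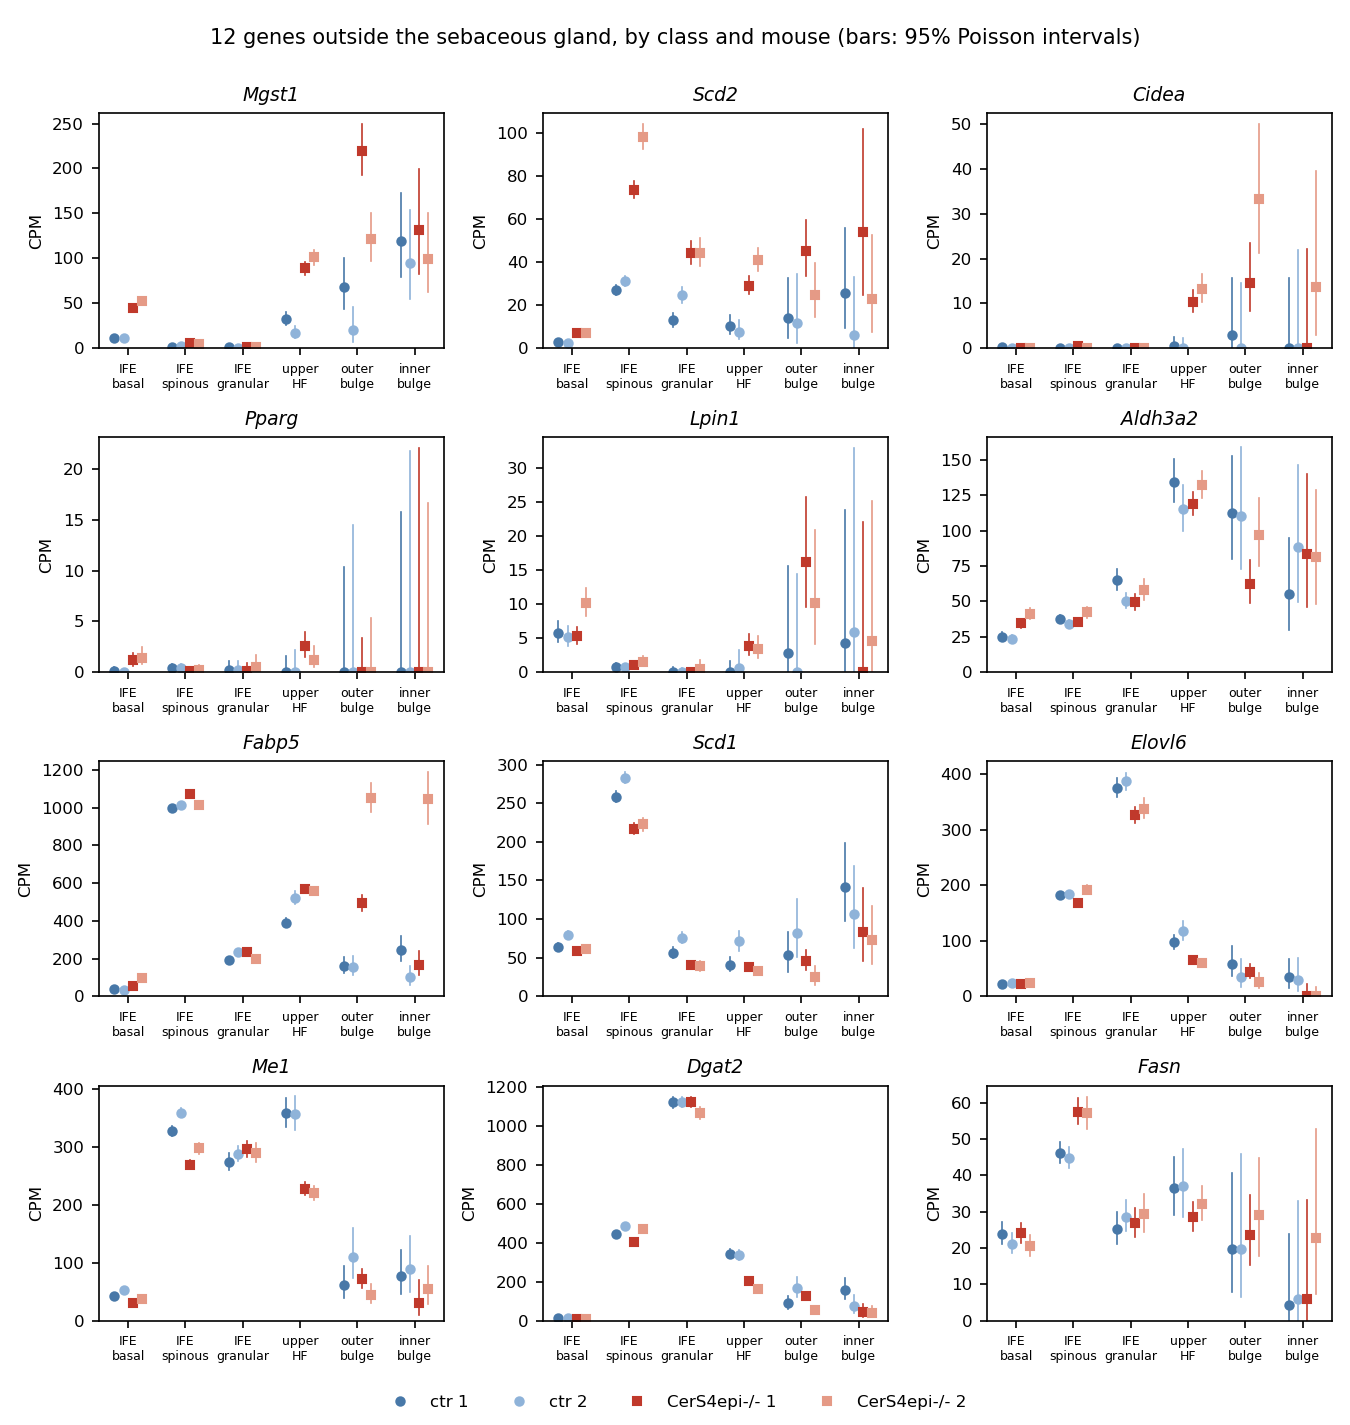
Level in CPM (linear axis) of 12 members outside the gland, by class, with circles for the controls, squares for the CerS4epi-/- mice and bars for 95% Poisson intervals, which cover counting error only. The squares of Mgst1 and Scd2 lie above both circles in IFE basal-like, IFE spinous-like, uHF-like and OB-like cells, and those of Elovl6, Me1 and Dgat2 lie below both circles in uHF-like cells.

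Cidea, the droplet protein that marks lipid-filled sebocytes, had few counts in the uHF-like cells of the controls. It had 1 count in ctr 1 and 0 in ctr 2, and 70 and 74 counts (10.3 and 13.1 CPM) in the CerS4epi-/- mice. The ratio of the groups was 46.1 (95% counting interval 8.14 to 1833), and the groups did not overlap. Cells with a UMI were 1 of 650 and 0 of 489 (upper limit 0.752%, exact Clopper-Pearson interval) in the controls and 48 of 1472 (3.26%) and 53 of 1345 (3.94%) in the CerS4epi-/- mice, and no single cell held more than 5. At 1200 UMIs per cell the shares were 0.154% and 0 against 1.22% and 1.19%. In the sum of all other keratinocytes 0.114 and 0.0245 CPM stood against 2.14 and 3.20 CPM. Fitted folds on so few control counts depend on the prior count and are not given. In barcodes of 10 to 100 counts Cidea had 0 and 1 counts in the controls and 9 and 6 counts (6.42 and 6.39 CPM) in the CerS4epi-/- mice, so free Cidea RNA was higher there too, and its part was not tested.

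In OB-like cells Cidea was too low in the controls to be tested, with 1 of 92 and 0 of 57 cells against 13 of 166 (7.83%) and 16 of 122 (13.1%), and a ratio of 13.3 (2.24 to 537) from 1 against 39 counts. In IFE basal-like cells it was at 0.195 and 0.0963 CPM against 0.0776 and 0.105 CPM, and in T cell-like and Langerhans cell-like cells at 0 in all 4 mice. Cidea was in 0 of 138 and 0 of 143 T cell-like cells of the CerS4epi-/- mice, which allows shares of cells with a UMI of up to 2.64% and 2.55% (exact 95% limits) at median depths of 1914 and 1777 counts, where uHF-like cells had 3667 and 3234. In IFE spinous-like cells it was at 0.0167 and 0 CPM in the controls and at 0.492 and 0.0860 CPM (8 and 1 counts) in the CerS4epi-/- mice, too few to be tested.

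Pparg and Lpin1 had 0 or 1 count in classes of the controls. Pparg, the nuclear receptor that drives sebocyte differentiation, had 1 and 0 counts in the IFE basal-like cells of the controls (0.0973 and 0 CPM) and 1.16 and 1.42 CPM in the CerS4epi-/- mice. The ratio was 26.8 (4.44 to 1093) from 1 against 29 counts, and DESeq2 did not call it (adjusted p = 0.104). In uHF-like cells Pparg had 0 counts in the controls against 24 counts, at least 2.56-fold higher against a floor of 3 counts over the controls, and was not tested. Ces4a (0 against 23 counts), Pctp (0 against 20) and Dgat2l6 (0 against 19) likewise had counts in uHF-like cells of the CerS4epi-/- mice and 0 in those of the controls, at least 2.45-fold, 2.13-fold and 2.03-fold higher against the same floor. The lower 95% counting limits of these 4 ratios were 1.93, 1.84, 1.58 and 1.49. In IFE spinous-like cells Pparg was at 0.400 and 0.411 CPM in the controls and at 0.116 and 0.258 CPM in the CerS4epi-/- mice, below the controls. Over all other keratinocytes the log2 fold change of Pparg was 1.59 ± 0.31 (adjusted p = 0.0165, edgeR), a call lost without any 1 of the 4 mice (adjusted p = 0.0551 to 0.0732).

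Lpin1, a phosphatidate phosphatase of glycerolipid synthesis, was at 0 and 0.588 CPM in uHF-like cells of the controls and at 3.82 and 3.37 CPM in the CerS4epi-/- mice. The ratio was 14.4 (2.46 to 581) from 1 against 45 counts. It did not pass without ctr 1 or without ctr 2, nor by DESeq2 (adjusted p = 0.277), and could not be tested without either CerS4epi-/- mouse. In Langerhans cell-like cells Lpin1 was higher too, at 35.8 to 36.7 CPM in the controls and 53.7 to 118 CPM in the CerS4epi-/- mice. Over all other keratinocytes its log2 fold change was 0.95 ± 0.24 (adjusted p = 0.0371, edgeR), which did not hold without ctr 2 (adjusted p = 0.0799) or without CerS4epi-/- 2 (adjusted p = 0.140).

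Fabp5, an epidermal fatty acid binding protein, rose in OB-like and IFE basal-like cells. In OB-like cells it was at 163 and 157 CPM in the controls and at 494 and 1052 CPM in the CerS4epi-/- mice (log2 fold change 2.31 ± 0.31, adjusted p = 0.000321, edgeR). Without ctr 1 or without ctr 2 it did not pass (adjusted p = 0.0792 and 0.0649). In IFE basal-like cells it was at 37.4 and 34.3 CPM against 55.9 and 96.0 CPM (1.13 ± 0.21, adjusted p = 0.0116, edgeR). In IFE granular-like cells it was at 194 and 233 CPM against 238 and 196 CPM (0.10 ± 0.12, adjusted p = 0.656, edgeR), and in IB-like cells at 248 and 101 against 167 and 1044 CPM (1.83 ± 0.55, adjusted p = 0.0662, edgeR). Where it was highest outside the gland, in IFE spinous-like cells, it was at 997 and 1015 CPM against 1072 and 1013 CPM (0.06 ± 0.08, adjusted p = 0.733, edgeR), and the groups overlapped. In Langerhans cell-like cells Fabp5 went the other way, at 206 to 227 CPM in the controls and 83.2 to 142 CPM in the CerS4epi-/- mice.

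Aldh3a2 was at 24.997 and 23.5 CPM against 34.5 and 41.3 CPM in IFE basal-like cells (log2 fold change 0.69 ± 0.12, adjusted p = 0.00778, edgeR) and did not pass there without CerS4epi-/- 2 (0.56, adjusted p = 0.0662). Over all other keratinocytes it was 0.45 ± 0.11 (adjusted p = 0.0313), lost without ctr 2 or CerS4epi-/- 2 (adjusted p = 0.0700 and 0.115). Awat2 was at 0.400 and 0.489 CPM against 0.895 and 1.38 CPM over all other keratinocytes (1.34 ± 0.33, adjusted p = 0.0359, edgeR), lost without ctr 1, ctr 2 or CerS4epi-/- 2 (adjusted p = 0.0550 to 0.176). Fasn was at 46.2 and 44.8 CPM against 57.5 and 57.1 CPM in IFE spinous-like cells (0.34 ± 0.08, adjusted p = 0.0358, edgeR), a call lost without any 1 of the 4 mice (adjusted p = 0.0898 to 0.161). The log2 fold change of Fasn itself stayed at 0.32 to 0.35 with 1 mouse left out.

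The members that fell did so mainly in uHF-like cells. Dgat2 was at 344 and 335 CPM in the controls and at 201 and 165 CPM in the CerS4epi-/- mice (log2 fold change -0.83 ± 0.12, adjusted p = 0.00183, edgeR). Elovl6 was at 97.0 and 118 CPM against 64.7 and 60.5 CPM (-0.70 ± 0.12, adjusted p = 0.00601), but this turned to 0.42 (adjusted p = 0.0890) with the cells set aside back in the class. Me1 was at 358 and 357 CPM against 228 and 220 CPM (-0.61 ± 0.10, adjusted p = 0.00339). All 3 are also genes of the differentiated IFE, with Dgat2 highest in IFE granular-like cells, and in IFE granular-like cells none of them passed (log2 fold changes 0.04, -0.12 and 0.14). All 3 were also lower in Langerhans cell-like cells, which was not tested. Dgat2 was there at 422 to 525 CPM in the controls against 280 to 355 CPM. Elovl6 was at 47.7 to 175 against 38.4 to 43.8 CPM, and Me1 at 128 to 155 against 46.0 to 56.9 CPM. Over all other keratinocytes their log2 fold changes were -0.29, -0.32 and -0.37, with adjusted p of 0.0469, 0.0214 and 0.0161 (edgeR), and Elovl6 did not pass with the cells set aside (-0.19, adjusted p = 0.120). Dgat2 there did not pass without ctr 2 (adjusted p = 0.164), CerS4epi-/- 1 (adjusted p = 0.0752) or CerS4epi-/- 2 (adjusted p = 0.176), nor Elovl6 without ctr 2 (adjusted p = 0.0670), CerS4epi-/- 1 (adjusted p = 0.0572) or CerS4epi-/- 2 (adjusted p = 0.0656).

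The number of calls in uHF-like cells rested on CerS4epi-/- 2. Without it 0 of the 7 calls held, with 1.87 (adjusted p = 0.0705) for Mgst1, 1.74 (adjusted p = 0.0632) for Scd2, an adjusted p of 0.0673 for Cidea, -0.69 (adjusted p = 0.0953) for Dgat2, -0.66 (adjusted p = 0.173) for Elovl6 and -0.59 (adjusted p = 0.132) for Me1, while Lpin1 could not be tested. Without CerS4epi-/- 1, 4 held, and Elovl6 (adjusted p = 0.114) and Me1 (adjusted p = 0.0881) did not. In OB-like cells 0 calls held without ctr 1 or without ctr 2, with Mgst1 at 3.19 (adjusted p = 0.0638) and 1.42 (adjusted p = 0.184). In IFE spinous-like cells Mgst1 did not pass without CerS4epi-/- 1 (adjusted p = 0.111) or CerS4epi-/- 2 (adjusted p = 0.0709). In IFE basal-like cells Pparg did not pass without ctr 2 (adjusted p = 0.0766) or CerS4epi-/- 2 (adjusted p = 0.0862). Without any single mouse, Mgst1 and Fabp5 in IFE basal-like cells and Scd2 in IFE basal-like, IFE spinous-like and IFE granular-like cells kept their calls. So did Mgst1, Scd1, Scd2 and Me1 over all other keratinocytes. Cidea kept its call there too, but it reached the filter on low counts in the CerS4epi-/- mice only, so this is no support.

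Markers of other classes moved with genotype inside the classes. In uHF-like cells the 6 spinous markers summed to 25480 and 28847 CPM in the controls and to 17736 and 16528 CPM in the CerS4epi-/- mice, and in OB-like cells to 18734 and 24822 CPM against 10718 and 6705 CPM. In IFE basal-like cells the 7 uHF markers summed to 501 and 441 CPM against 1020 and 1582 CPM. Adipocyte markers stayed at 0 to 1.24 CPM in the tested IFE, uHF-like and OB-like classes. Narrowed classes, chosen after seeing the data, left out uHF-like and OB-like cells with 2% or more of their counts in spinous markers and IFE basal-like cells with a UMI of Krt79 or Krt17. In narrowed IFE basal-like cells Mgst1 still passed (1.83, adjusted p = 1.26e-04, edgeR), while Fabp5 (0.16, adjusted p = 0.491), Aldh3a2 (0.33, adjusted p = 0.159) and Scd2 (1.25, adjusted p = 0.137) did not and Pparg could not be tested. In narrowed uHF-like cells Mgst1 (1.48), Scd2 (3.97), Dgat2 (-0.68) and Me1 (-0.65) still passed, while Elovl6 (-0.59, adjusted p = 0.113) and Lpin1 (adjusted p = 0.0568) did not. Cidea also passed, which is no support, since it had almost no control counts. In narrowed OB-like cells Fabp5 (3.37) passed and Mgst1 (1.48, adjusted p = 0.0768) did not.

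The amount of sebocyte RNA that could be present in other cells was estimated from the data under an assumed profile. All Scd1 or all Elovl6 of a class was taken to come from sebocytes, with the summed profile of the sebocyte-like cells of the same mouse. Whichever gave less put sebocyte RNA at 0.386% and 0.223% of the counts of uHF-like cells in CerS4epi-/- 1 and 2. That share would bring Cidea to 2.66 and 1.72 CPM, where 10.3 and 13.1 CPM were measured, and Mgst1 to 11.3 and 6.17 CPM, where 88.7 and 101 CPM were measured. Scd2 would be at 0 and 0.167 CPM against 29.0 and 40.8 CPM. These values hold only for that profile, and single sebocyte-like cells differed from it. In CerS4epi-/- 1 and 2 Elovl6 ran from 2257 to 28380 and from 1001 to 25328 CPM over these cells. Scd1 ran from 0 to 18896 and from 0 to 22554 CPM. The estimates are thus no upper limits, doublets were not removed, and the part of free RNA in these levels was not tested. In IFE spinous-like cells the same estimate for Mgst1 was 29.9 and 30.0 CPM, above the 5.15 and 4.73 CPM measured. Awat2 in uHF-like cells was at 2.501 and 6.03 CPM against estimates of 4.34 and 1.73 CPM, below in 1 mouse and above in the other.

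**Figure D5:**
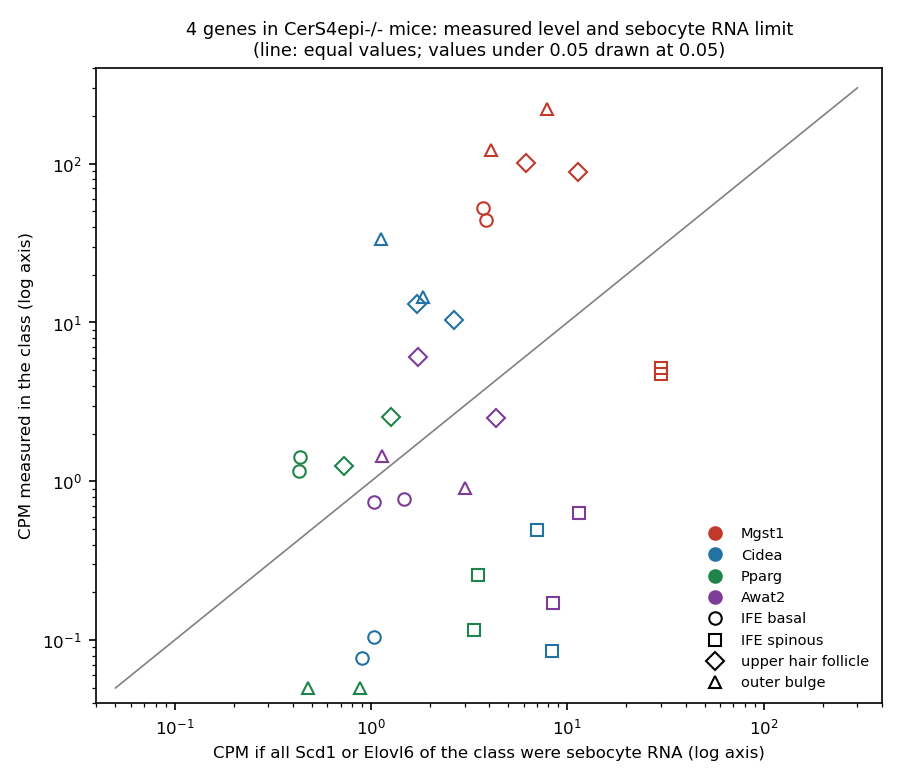
Measured level (vertical, CPM, log axis) of Mgst1, Cidea, Pparg and Awat2 (colours) in classes (symbols) of the 2 CerS4epi-/- mice against the level that the share of sebocyte RNA estimated from Scd1 or Elovl6 would give under the summed profile of sebocyte-like cells (horizontal, CPM, log axis), with a line of equal values and values under 0.05 drawn at 0.05. Mgst1 and Cidea lie above the line in uHF-like and OB-like cells and below it in IFE spinous-like cells.

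Of 68 further genes of fatty acid, glycerolipid and droplet metabolism that are not members, 55 were tested over all other keratinocytes and 18 passed, 15 higher and 3 lower, with a median of 0.12. By size the first 6 were Fads3 (3.71 ± 0.66), a relative of the fatty acid desaturases, Acsl4 (2.00 ± 0.20), an acyl-CoA synthetase of polyunsaturated chains, Apoe (1.77 ± 0.10), a lipoprotein component, Insig2 (1.11 ± 0.09), a sterol sensor partner of SREBP processing, Slc27a1 (0.74 ± 0.08), a fatty acid transporter, and Elovl7 (0.74 ± 0.07), an elongase, all higher in CerS4epi-/- mice. In the classes 6 of 51 passed higher and 0 lower in IFE basal-like, 6 and 1 of 51 in IFE spinous-like, 7 and 1 of 42 in IFE granular-like, 12 and 3 of 49 in uHF-like, 6 and 2 of 39 in OB-like and 3 and 1 of 27 in IB-like cells. The backgrounds are those given for the same comparisons above.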

How the data were processed

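Per the labels and the study's methods, the authors trimmed reads with fastp 0.23.2, mapped them with STAR 2.7.10a (STARsolo) to GRCm39 with Gencode vM29, and deposited, for each gene in each barcode, estimated counts of UMIs (expected counts), with multi-mapped reads shared by expectation maximization. These expected counts are not normalized, 4.55% to 4.81% of the entries were not whole, and libraries held 39231945 to 53106317 counts.

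Barcodes were kept as cells from 1200 counts upwards when no more than 20% of counts were mitochondrial. Doublets were not removed. Classes came from marker gates: at least 4 T cell or 4 Langerhans cell markers, 2 UMIs of Krt75 (IB), Lhx2 with 3 OB markers, 3 UMIs of Krt79 with 4 uHF markers, 3% granular markers, 2% spinous markers, or 1% basal markers with under 1% spinous markers. A further gate, on 1 gene that is not reported here, kept 39 cells out of all classes. The members, lists and gates were chosen with earlier results of these data known. Counts were summed per class and mouse, rounded and tested with the quasi-likelihood test of edgeR 4.0.16 (R 4.3.3), after TMM scaling and filterByExpr, where each mouse had 10 or more cells of the class. P-values were adjusted over all genes tested (Benjamini-Hochberg, threshold 0.05). The sebaceous comparisons, designed for 4 mice, used 3, since ctr 2 had no sebocyte-like cell. The code was tested on simulated data. Members past the threshold in at least 2 comparisons, those called sebaceous only (up to 10 per comparison by size) and, of the other lipid genes, the 6 largest changes were named. The rest were given as counts, and further members named were chosen after their values were seen. Intervals at 95% and floors of 3 counts cover counting error only. A count in sebocyte-like cells of 10 or more was needed to class a member. Alternatives included DESeq2 1.42.0, other filters and gates, and each mouse left out. Windows came from GRCm39 with Gencode vM39.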

Additional observations from a re-analysis of the deposited data

How the results depend on the processing

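Of 444 values of the 30 member calls under the alternatives, 364 kept the call, 79 lost it and 1 changed direction, and 6 could not be tested. Mgst1 in IFE basal-like cells, Scd2 in IFE spinous-like and IFE granular-like cells, and Mgst1, Scd1 and Scd2 over all other keratinocytes kept theirs in all 15 alternatives. Cidea over all other keratinocytes also did, but it reached the filter in the CerS4epi-/- mice only, so this is no support. No alternative removed free RNA. The counts of members called moved as follows. They stand without the share of all genes called under the same alternative, and the cause was not tested. With at most 10% mitochondrial counts, 6 passed over all other keratinocytes, 2 in IFE basal-like and 1 in IB-like cells. With stricter gates, 7 passed over all other keratinocytes, 1 in IFE granular-like, 1 in OB-like and 1 in IB-like cells. With narrowed classes (added after seeing the data), 7 passed over all other keratinocytes, 1 in IFE basal-like and 1 in OB-like cells. With the 39 cells set aside back in their classes (added after seeing the data), 11 passed in uHF-like and 1 in IB-like cells, and Elovl6 in uHF-like cells turned from -0.70 to 0.42 (adjusted p = 0.0890). DESeq2 called 3 in IFE basal-like cells. With no filter on low counts, 6 passed in IFE spinous-like, 13 in uHF-like, 4 in OB-like and 3 in IB-like cells. Without the 5% of cells with the most counts, 1 passed in IB-like cells, and 20 in sebocyte-like against other keratinocytes.

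Leaving out each mouse gave 5 (without ctr 2 or CerS4epi-/- 2) to 12 calls over all other keratinocytes, 3 (without CerS4epi-/- 2) to 6 in IFE basal-like, 1 (without either CerS4epi-/- mouse) to 2 in IFE spinous-like, 1 (without ctr 2) to 3 in IFE granular-like, 0 (without CerS4epi-/- 2) to 7 in uHF-like, 0 (without either control) to 5 (without CerS4epi-/- 1) in OB-like and 0 to 2 (without ctr 2) in IB-like cells. It gave 31 to 34 in sebocyte-like against other keratinocytes. The remaining single mouse is assumed to vary like the others. All these counts stand without the share of all genes called in the same fits. The planned test of whether the genotype effect differs between the gland and other keratinocytes is not given, since ctr 1 would be its only control. Sebaceous only members numbered 19 to 23 under the marker gate and its alternatives. The 17 under the member gate include the genes that make that gate and are no support.

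With the replicate number as a block, 6 members passed in IFE spinous-like and 2 in IB-like cells. No call was lost, and the share of all genes called with the block is not given. The replicate numbers share no litter or day in the labels, and the deviations of same-numbered mice correlated at -0.07 to 0.10. Thinning to 1200 UMIs lowered the shares of uHF-like cells with a UMI. Depth limits the members with 0 or 1 control counts and the sebocyte-like class of ctr 1, with 8 cells.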
